A study of Danio rerio with 20 samples.

Results

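The 10 libraries described here come from zebrafish (Danio rerio) larvae that received no effluent extract, and all 10 are treated as a single condition. They carry the label CTRL in samples of 2 campaigns, 5 libraries named CTRL JUN20 and 5 named CTRL OCT20, out of 20 libraries in the series. Each library was made from a pool of 10 whole wild-type larvae at 5 days post fertilisation (dpf), reared at 28.5 °C with 12 h of light and 12 h of darkness. The other 10 libraries, SEC JUN20 and SEC OCT20, were from larvae kept in a 20-fold wastewater effluent extract from 4 to 5 dpf and are not described. The labels do not name what the control larvae received in place of extract, or say whether pools of a campaign came from separate spawns, so part of the spread between pools may be technical. The tissue is labelled as whole embryo and the stage as larva. No test between campaigns was made.

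At this age a zebrafish larva has hatched, swims with its trunk muscle, sees with a retina rich in cones, and is using up the last of its yolk while liver, pancreas and gut take over nutrition. Its gills are still forming, and ion uptake takes place largely in ionocytes of the skin. Teleost fish descend from an ancestor whose genome was duplicated, and many zebrafish genes survive as pairs whose names end in a and b.

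The libraries held between 28.8 and 49.0 M counts (median 34.3 M). Levels are given in CPM, a gene’s counts per M counts of the library, scaled by the trimmed mean of M-values (TMM), so that 1 CPM stood for 28.5 to 49.2 counts in a library. A CPM value is a share of the counts and is not divided by transcript length, so differences in CPM between genes are differences in counts and not in numbers of molecules. A count of 0 allows a level of up to 0.0610 CPM in one library and 0.105 CPM in another, the extremes of the 10, which is the level of 3 counts, and covers counting error only. Between the 45 pairs of libraries, log2 levels of the 11457 genes that averaged 10 CPM or more correlated across genes with Pearson's r of 0.968 to 0.996. Genes are not independent replicates, and the values describe likeness only. Counts differed by more than sampling noise in all 45 pairs, with a chi-square of at least 8.31 per gene, so each library was counted once.

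CTRL OCT20 r1 and CTRL OCT20 r5 lay furthest from the other libraries. The 5 CTRL OCT20 libraries were also more spread out than the 5 CTRL JUN20 libraries. On the first principal component, which held 53.9% of the variance, CTRL OCT20 r1 and r5 scored 20.2 and 23.9, and r3 scored 8.86. CTRL OCT20 r2 and r4 were lowest at -11.2 and -10.1, below the CTRL JUN20 libraries at -9.15 to -1.97. On the second component (19.4%), CTRL JUN20 libraries scored 3.15 to 8.45 and CTRL OCT20 libraries -13.7 to 1.31. CTRL OCT20 r5 had 474 genes that differed by more than 1.5 times from the median of the 10 libraries. CTRL OCT20 r1 had 322, r4 141, r2 80 and r3 75, against 15 to 39 in each CTRL JUN20 library. Some spreads that leaving out CTRL OCT20 r1 and r5 moved by more than 1.5 times are given with and without them. The coefficients of variation of nuclear oxidative phosphorylation, notochord, pigment cell, ear and pineal sums also fell by more than 1.5 times. Those sums are given only as ranges over all 10 libraries. For the interrenal, thyroid and gonadal steroid sum it fell from 8.85% to 5.64% without CTRL OCT20 r1 and r5. Any range given alone covers all 10 and may depend on both.

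Of 32520 annotated genes, 18983 reached 1 CPM in all 10 libraries and are called detected. A further 2097 reached that level in some libraries, 7054 had counts but stayed below it throughout, and 4386 had no count in any library. Mean levels were at least 10 CPM for 11457 genes, at least 100 CPM for 1489, at least 1000 CPM for 90 and at least 10000 CPM for 5. The 7 most abundant genes held 10% of the CPM, 532 genes held 50%, 7434 held 90% and 16281 held 99%. Few genes thus held most of the counts, while most detected genes lay below 100 CPM.

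**Figure D1:**
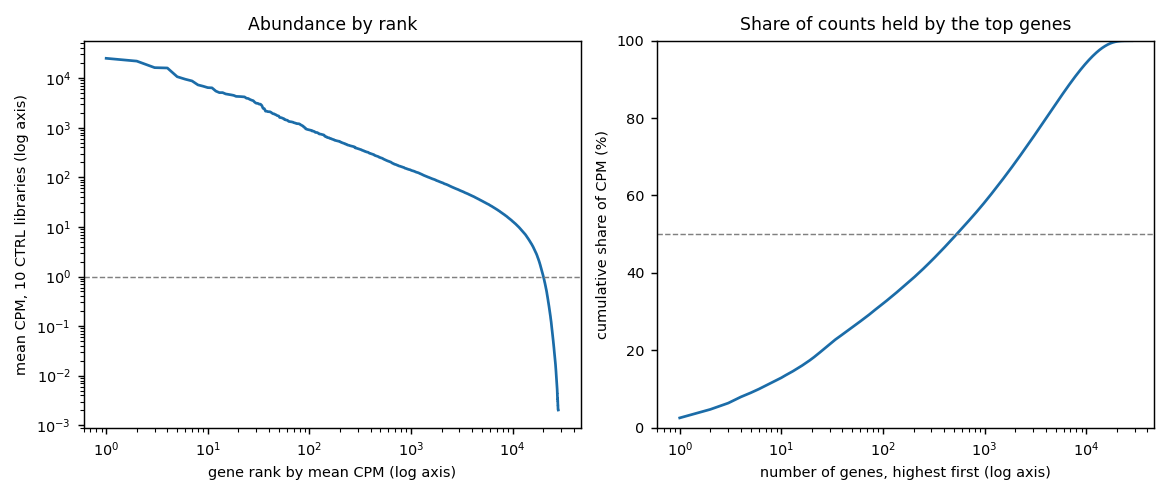
Left, mean CPM of genes over 10 CTRL libraries against their rank, both on log axes, with 1 CPM dashed. Right, the cumulative share of CPM in percent against the number of genes (log axis); the line passes 50% at 532 genes.

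Protein-coding genes took 95.7% ± 0.513 of the counts (SD, n = 10), and 18508 of 25432 were detected. Among them, 6976 genes had only a clone or locus name, 3095 of those were detected, and they took 6.19% ± 0.163 of the counts. The 37 genes of the mitochondrial genome took 6.63% ± 0.490, of which 2 ribosomal RNAs took 2.53% ± 0.454 and 13 protein-coding genes 4.103% ± 0.207. The ribosomal RNA NC_002333.4 was the most abundant gene of the table, between 17108 and 32968 CPM (median 23479), and its highest library held 1.93 times its lowest. The other, NC_002333.17, was between 219 and 336 CPM (median 245). Of the 22 mitochondrial transfer RNAs, 14 had no count and none was detected.

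The mitochondrial messengers encode core subunits of the respiratory chain and the ATP synthase, and they summed to 41023 ± 1937 CPM (SD, n = 10). The 3 subunits of complex IV, the oxidase that passes electrons to oxygen, took 63.3% ± 2.35 of that sum. mt-co1 was between 14540.1 and 18000.5 CPM (median 16211), mt-co3 was between 4773 and 5489.6 CPM (median 5101) and mt-co2 was between 4359 and 4918 CPM (median 4527). The 7 subunits of complex I took 18.6% ± 1.151, cytochrome b (mt-cyb) of complex III took 10.4% ± 0.477, and the 2 subunits of the ATP synthase took 7.67% ± 0.908. A single complex with 3 genes therefore gave most of the mitochondrial messenger counts in every library. Nuclear genes of oxidative phosphorylation, 91 by name with 87 detected, summed to between 8339 and 9935 CPM (median 9281), led by the ATP synthase genes atp5f1b, between 1053 and 1302 CPM (median 1190.0), and atp5fa1, between 935 and 1123 CPM (median 1027).

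Long non-coding genes numbered 3274, of which 424 were detected, and took 1.66% ± 0.117 of the counts (SD, n = 10). Most of that came from 2 genes annotated as long intergenic RNA: CR383676.2, between 8507 and 11854 CPM (median 9056), and CT027638.1, between 1214 and 2357 CPM (median 1649). The third long intergenic RNA gene, oip5-as1, a conserved cytoplasmic RNA, was far lower, between 168 and 202 CPM (median 194). The highest antisense gene was BX901920.1, between 40.1 and 80.04 CPM (median 70.23), and 47 of 672 antisense genes were detected. Pseudogenes, 39 of 299 of which were detected, took 0.0827% ± 0.00539, led by FO704772.2, between 120.1 and 245 CPM (median 167).

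The libraries were prepared with a stranded messenger RNA kit, and short and ribosomal RNAs of the nucleus had few counts. Of 434 microRNA genes 427 had no count. Of 1966 nuclear ribosomal RNA genes 1871 had no count, and the class took 0.00194% ± 0.000547 of the counts. Among 1335 small non-coding genes 2 were detected. Some biotype labels did not separate messengers from other RNA: rps20, a ribosomal protein gene, was labelled as a processed transcript and was between 388 and 474 CPM (median 424). By that label rps20 was counted above among the long non-coding genes.

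The most abundant named genes came from few tissues. Of the 20 with the highest mean CPM, 10 were on the list of fast skeletal muscle, 4 were mitochondrial messengers, 1 was on the skin list and 1 on both the liver and the gut list. The remaining 4 have general roles: eef1a1l1 and eef2b encode elongation factors of translation, actb2 a cytoplasmic actin and hspa8 the constitutive Hsp70 chaperone. eef1a1l1 was between 8048 and 9166 CPM (median 8878), eef2b between 4625 and 5441 CPM (median 5101), actb2 between 4208 and 5188 CPM (median 4705) and hspa8 between 3972 and 4673 CPM (median 4251). None of these 4 genes differed by as much as 1.3 times between its highest and lowest library.

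Tissues and processes were followed with 42 gene lists, which held 1630 genes and 38.5% ± 0.530 of the CPM (SD, n = 10). The sum of a list is a share of the counts, and in whole larvae fewer cells of a type and less RNA per cell cannot be told apart. Of the 42 lists, 24 averaged at least 1000 CPM. Without CTRL OCT20 r1 and r5, the mean of each list stayed within 1 SD of its mean over 10 libraries. That SD includes both libraries, so the outcome was near certain beforehand and does not show that their influence was small.

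**Figure D2:**
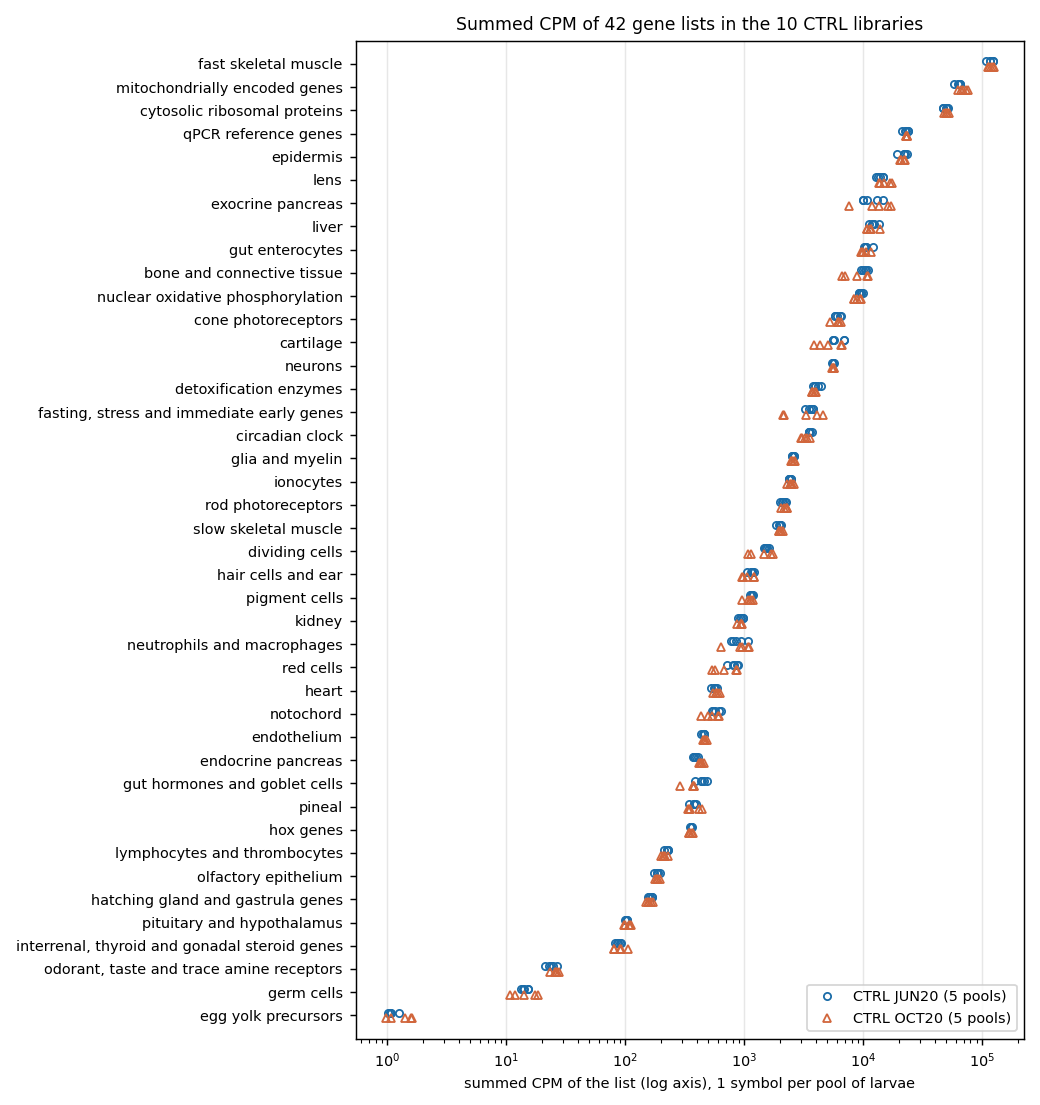
Summed CPM of each gene list (log axis) in the 10 CTRL libraries, with 1 symbol per library and campaigns marked by symbol. Fast skeletal muscle lies highest, between 108635 and 126086 CPM, and egg yolk precursors lowest, between 0.972 and 1.61 CPM.

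Fast skeletal muscle, the bulk of the swimming musculature, held 11.9% of the CPM and summed to between 108635 and 126086 CPM (median 118626). All 43 matched genes were detected, and 19 averaged at least 1000 CPM. The myosin heavy chain gene myhz1.1 (ENSDARG00000067990) was between 19840.2 and 23740.0 CPM (median 22003), and a second gene of that symbol was between 681 and 888 CPM (median 773). The neighbouring myhz1.2, myhz2 and myhz1.3 had medians of 10483, 6471 and 4629.8 CPM. These copies are near-identical, so the division of counts among them is uncertain.

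The other leading muscle genes encode filament proteins, the calcium pump and calcium buffers. The actin gene actc1b was between 14422 and 17617 CPM (median 16002), the tropomyosin gene tpma between 3909.9 and 4593 CPM (median 4286) and the regulatory light chain gene mylpfa between 6583 and 7737 CPM (median 7348). atp2a1, the calcium pump of the sarcoplasmic reticulum, was between 6281 and 7491 CPM (median 6933), and the calcium-binding parvalbumins pvalb2 and pvalb1 were between 5042 and 5775 CPM (median 5541) and between 4115 and 4907 CPM (median 4475). In each of these 6 genes the highest library held less than 1.3 times the lowest.

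Among 14 muscle myosin heavy chain genes, grouped after their values were seen, the 8 of fast muscle took 96.8% ± 0.105 of the CPM, the 4 of slow muscle 2.91% ± 0.0939 and the 2 of the heart 0.314% ± 0.0200 (SD, n = 10). Slow muscle genes summed to between 1869 and 2140.1 CPM (median 2004), and smyhc1, their main myosin, was between 1007 and 1242 CPM (median 1090.3). Within this family myhc4, a fast myosin, was between 97.5 and 698 CPM (median 366), so its highest library held 7.16 times its lowest. Heart genes summed to between 531 and 625 CPM (median 575), with 13 of 16 detected. A gene of the symbol actc1a took 46.0% of that sum, and a second gene of that symbol was between 39.4 and 131.5 CPM (median 60.6). The 3 largest members took 82.6%, so the sum rests on few genes. The ventricular myosin gene myh7 was between 125 and 158 CPM (median 134) and myl7, a light chain of the heart chambers, between 17.9 and 26.4 CPM (median 23.7). The natriuretic peptide gene nppb averaged 0.397 CPM, the growth factor gene bmp10 0.197 CPM and the transcription factor gene nkx2.5 0.722 CPM, and none of these 3 was detected.

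Lens genes summed to between 12884 and 17361 CPM (median 14302), with 51 of 65 detected. Crystallins are the soluble proteins that give the lens its refractive power, and the 57 crystallin genes averaged 13939.8 ± 1416 CPM together (SD, n = 10). The 35 genes of the gamma M class, a fish class, took 49.98% ± 1.02 of that sum and the 13 beta genes 45.0% ± 1.08. The 3 alpha crystallins, which are also chaperones, took 0.497% ± 0.0473, and cryaa was between 56.1 and 91.5 CPM (median 66.0). The leading members were crybb1l1, between 1115 and 1559.9 CPM (median 1333), and crybb1, between 918 and 1334 CPM (median 1129.7). The highest lens sums were 17361 CPM in CTRL OCT20 r1 and 16831 CPM in CTRL OCT20 r5, and the other 8 lay between 12884 and 14998 CPM. The coefficient of variation of the sum was 9.94%, and 5.17% without those 2 libraries.

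Cones detect colour and rods dim light. The 35 cone genes summed to between 5231 and 6583 CPM (median 6150.4) and the 17 rod genes to between 2015 and 2281 CPM (median 2173). The cone list, which holds more genes, thus had the larger sum in every library. Singly, the opsins did not follow that order. The rod opsin gene rho was between 1210.1 and 1459 CPM (median 1305) and took 34.9% ± 2.08 of the CPM of 9 visual opsin genes. The ultraviolet cone opsin gene opn1sw1 was between 1112 and 1463 CPM (median 1246) and took 33.2% ± 1.199. Their ranges overlapped, and both exceeded every other opsin gene in all 10 libraries.

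Red and green opsins are encoded by tandem copies that the growing retina turns on in turn. Red opsins together took 14.0% ± 1.304 of the opsin CPM, green opsins 9.44% ± 0.713 and the blue opsin gene opn1sw2 8.47% ± 0.377. Of the red pair, opn1lw2 was between 407 and 689 CPM (median 504) and opn1lw1 between 1.07 and 11.8 CPM (median 3.16). Of the 4 green genes, opn1mw1 was between 199 and 363 CPM (median 267) and opn1mw2 between 55.2 and 118 CPM (median 82.1), while opn1mw3 averaged 0.335 CPM and opn1mw4 had 2 counts over all 10 libraries. The red copy opn1lw2 carried nearly all counts of its pair. Among opsins with counts in every library opn1lw1 was the most uneven, with 10.96 times as much in its highest library as in its lowest. Other leading cone genes were pde6ha, a phosphodiesterase subunit, between 636 and 911 CPM (median 719), and the arrestin gene arr3a, between 478 and 789 CPM (median 678).

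Neurons and glia had the steadiest sums of the 42 lists. Neuron genes summed to between 5427 and 5748 CPM (median 5596), with a coefficient of variation of 1.59%, and genes of glia and myelin to between 2484 and 2654 CPM (median 2561), with 1.95%. The RNA-binding proteins elavl3 and elavl4 of postmitotic neurons were between 476 and 509.9 CPM (median 488) and between 386 and 415 CPM (median 406). slc1a2b, the glutamate transporter of astroglia, was between 596 and 662 CPM (median 641), and gfap, the filament of radial glia, between 121 and 161 CPM (median 149). All 25 glial genes and 38 of 39 neuron genes were detected, and the exception, slc18a3b, which loads acetylcholine into vesicles, averaged 0.975 CPM.

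Skin genes summed to between 19456 and 23613 CPM (median 22071). Keratins led the list: krt4, a keratin of the surface layer, was between 5609 and 7254 CPM (median 6469), krt5 between 2642 and 3763 CPM (median 3097), cyt1 between 1755 and 2364 CPM (median 2123) and krt91 between 1749 and 2259 CPM (median 2084). krtt1c19e, a keratin of the basal layer, had a wider range, between 395 and 938 CPM (median 807). Ionocyte genes, all 23 of which were detected, summed to between 2289 and 2625 CPM (median 2442). The sodium pump genes atp1a1a.4 and atp1a1a.1 were between 462 and 697 CPM (median 562) and between 509.6 and 564 CPM (median 539), and rhbg, an ammonia channel, between 306 and 367 CPM (median 322).

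Liver genes summed to between 10742 and 13881 CPM (median 11835), with 39 of 40 detected. Their largest member was apobb.1, an apolipoprotein B that carries lipid out of yolk, liver and gut, which stood on the gut list too and was between 3742 and 4989 CPM (median 4182). Without genes on more than 1 list the liver genes averaged 7772 CPM, against 11987 CPM with them. apoa1b, the apolipoprotein of high-density particles, was between 2479.8 and 3459 CPM (median 2773), the retinol carrier rbp4 between 869 and 1068 CPM (median 921), and the iron carrier tfa between 445 and 1089 CPM (median 718). fabp10a, a fatty acid binding protein widely used to mark zebrafish liver, was between 201 and 322 CPM (median 272). tfa varied more between libraries than rbp4, with SDs of 0.34 and 0.11 on the log2 scale, or 0.24 and 0.07 without CTRL OCT20 r1 and r5.

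Genes of gut enterocytes summed to between 9677 and 12022 CPM (median 10489.6), and all 35 were detected. apobb.1, also on the liver list, took 39.9% of that sum. The chitinase gene chia.2 was between 1258 and 1669 CPM (median 1443), and fabp2, which binds fatty acids in absorptive cells, between 256 and 393 CPM (median 359). pck1, a gluconeogenic enzyme, was between 349.6 and 849 CPM (median 608) and stood also on the list of fasting genes. The goblet cell mucin genes muc5.1 and muc5.3 were between 100.9 and 213 CPM (median 166) and between 38.0 and 118 CPM (median 74.98). Of these, pck1 and both mucins differed by more than 2 times between their highest and lowest libraries.

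The exocrine pancreas, which makes the digestive enzymes, had a coefficient of variation of 24.2%, the highest of the 42 lists over all 10 libraries. Without CTRL OCT20 r1 and r5 it was 20.2%, below the 21.4% of the fasting and stress list and the 21.5% of the yolk precursors. Its sum was between 7589 and 17255 CPM (median 12508), lowest in CTRL OCT20 r4 and highest in CTRL OCT20 r5. The trypsin gene prss59.2 was between 941 and 2226 CPM (median 1589.6), the elastase gene cela1.6 between 967 and 2295 CPM (median 1590.3) and the chymotrypsin gene ctrb1 between 736 and 1832 CPM (median 1233). Within 28 enzyme genes, grouped after their values were seen, trypsins took 31.1% ± 0.694 of the CPM, elastases 27.9% ± 0.505, chymotrypsins 21.5% ± 0.360 and carboxypeptidases 12.2% ± 0.502 (SD, n = 10). The sum thus spanned 2.27 times, while trypsins stayed between 30.2% and 32.0% of the enzyme CPM.

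The endocrine pancreas list summed to between 372 and 455 CPM (median 411), and its largest members, neurod1 and pax6b, are transcription factors that neurons use as well. Of its 13 genes 7 averaged 10 CPM or more. ins, which encodes insulin, was between 7.80 and 11.4 CPM (median 8.67), gcga, which encodes glucagon, between 3.67 and 7.11 CPM (median 5.35), and sst1.1, which encodes somatostatin, between 9.76 and 12.0 CPM (median 10.24). All 13 islet genes were detected. Of 36 genes of pituitary and hypothalamus 18 were detected, with a sum between 98.0 and 111 CPM (median 103). The growth hormone gene gh1 was between 6.43 and 10.7 CPM (median 7.65) and the prolactin gene prl between 0.860 and 1.97 CPM (median 1.33), while the thyrotropin subunit gene tshba averaged 0.425 CPM.

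Genes of bone and connective tissue summed to between 6679.8 and 11073 CPM (median 10105) and cartilage genes to between 3829 and 6870.1 CPM (median 5652). The type I collagen genes col1a1a and col1a1b, of skin and bone, were between 2070.3 and 3641 CPM (median 3338) and between 1274 and 2136 CPM (median 1899), and the cartilage collagen gene col2a1a between 1174 and 2306 CPM (median 1840.0). Among 13 fibrillar collagen genes, type I took 56.3% ± 0.849 of the CPM, type II 21.4% ± 0.892, type XI 12.5% ± 0.376 and type V 9.77% ± 0.678 (SD, n = 10). The lowest bone sums were 6679.8 CPM in CTRL OCT20 r5 and 7101 CPM in CTRL OCT20 r1, and the other 8 lay between 8804 and 11073 CPM. Without both, the coefficient of variation was 7.54% for bone, against 16.5% with them, and 11.6% for cartilage, against 18.7%. bglap, the osteocalcin of mature bone, averaged 0.0145 CPM and had counts in 1 library.

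Endothelial genes, all 30 of which were detected, summed to between 430.3 and 487 CPM (median 458), led by the junction protein gene cdh5, between 42.3 and 50.95 CPM (median 47.0), and the growth factor receptor gene kdrl, between 40.4 and 46.4 CPM (median 43.2). Red cell genes summed to between 532 and 894 CPM (median 818), with 18 of 28 detected. Their coefficient of variation was 17.1%, and 9.66% without CTRL OCT20 r1 and r5, whose sums were the lowest. Globins carry oxygen and are switched from larval to adult genes as fish grow. Larval alpha globins took 52.6% ± 2.25 of the CPM of 16 globin genes and larval beta globins 47.4% ± 2.25. hbae3 was between 77.2 and 143 CPM (median 122.7) and hbbe1.1 between 62.1 and 187 CPM (median 107), whereas the adult genes hbaa2 and hbaa1 had 40 and 21 counts over the 10 libraries. Copies within these clusters are near-identical in part, so levels of single globins are uncertain.

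Most of the sum of neutrophil and macrophage genes, 78.6%, was cpa5, between 464 and 902 CPM (median 719), a carboxypeptidase gene that stood on the exocrine pancreas list too. Without genes on more than 1 list these leukocyte genes averaged 172 CPM, against 917 CPM with them. lyz, a lysozyme, was between 14.1 and 19.8 CPM (median 17.4), and the neutrophil peroxidase mpx between 9.27 and 15.1 CPM (median 10.99). Of 21 lymphocyte and thrombocyte genes 7 were detected. rag1, which cuts antigen receptor genes in the thymus, was between 6.91 and 9.39 CPM (median 8.14), while the T and B cell genes cd4-1, cd8a and cd79a averaged 0.238, 0.00618 and 0.0816 CPM. Of 176 immune receptor segments 146 had no count, and none was detected.

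Several lists had few detected members. None of 296 odorant, taste and trace amine receptor genes was detected, and together they summed to between 21.4 and 27.6 CPM (median 25.1), although ompa, which marks mature olfactory neurons, was between 6.03 and 8.42 CPM (median 6.76). Of 24 germ cell genes 3 were detected, and the helicase gene ddx4 was between 1.41 and 3.57 CPM (median 2.44). None of the 8 vitellogenin genes, the yolk precursors made by adult females, was detected, and the highest, vtg3, averaged 0.498 CPM. Of 28 genes of the hatching gland and the gastrula 7 were detected and 17 stayed below 1 CPM in every library. he1.1, a hatching enzyme, averaged 0.0515 CPM, and nanog, a factor of the early embryo, 0.0687 CPM. The list still summed to between 148 and 172 CPM (median 160.0), of which 61.1% was cd63, a tetraspanin of many cell types. eomesa, a T-box factor, averaged 18.6 CPM and agr2, which secretory cells use, 17.3 CPM.

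The hox genes, which give cells their position along the body axis, were almost completely measured, with 45 of 48 detected and a sum between 341 and 370.0 CPM (median 357). hoxb3a was between 48.2 and 51.6 CPM (median 49.7) and hoxa4a between 25.8 and 28.6 CPM (median 27.4). Paralogue groups 1 to 4, which act in the hindbrain, took 49.3% ± 1.25 of the CPM over 13 genes, groups 5 to 8 21.5% ± 0.805 over 12 genes and groups 9 to 13, which act in the trunk and tail, 29.2% ± 0.851 over 23 genes. hoxd13a, hoxa11a and hoxb1a averaged 1.09, 0.861 and 0.818 CPM, close to the level of detection, and each reached 1 CPM in some libraries.

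Genes of dividing cells summed to between 1071 and 1757 CPM (median 1505), with 36 of 36 detected. The tubulin gene tubb4b took 33.0% of that sum and the 3 largest members 47.9%. pcna, the clamp of DNA replication, was between 51.9 and 121 CPM (median 92.9), and mki67, a protein of cycling cells, between 81.9 and 154 CPM (median 139). The lowest sums were 1071 CPM in CTRL OCT20 r5 and 1142 CPM in CTRL OCT20 r1. Without these 2 libraries the coefficient of variation was 7.07%, against 14.8% with them. Detoxification genes summed to between 3683 and 4411 CPM (median 3933), with 59 of 65 detected. cyp3a65, a cytochrome P450 of gut and liver, was between 703 and 1031 CPM (median 827), the glutathione transferase gene gsta.1 between 176 and 322 CPM (median 248) and the efflux pump gene abcg2a between 165 and 248 CPM (median 206). These enzymes were therefore measurable in larvae without extract.

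Genes of smaller organs were detected as well. Pigment cell genes summed to between 962 and 1196 CPM (median 1134), of which 18.9% was mycbp2, a ubiquitin ligase of many tissues, and pmela, a melanosome protein, was between 60.1 and 106 CPM (median 90.4). Ear and hair cell genes summed to between 957 and 1210.3 CPM (median 1152), of which 42.7% was sparc, a matrix protein of many tissues. stm, a protein of the otolith, was between 156 and 198 CPM (median 179). Kidney genes summed to between 865 and 982 CPM (median 947), of which 41.2% was gamt. cdh17, a cadherin of the pronephric tubule, was between 131 and 194 CPM (median 165). Notochord genes summed to between 435 and 639 CPM (median 555). Pineal genes summed to between 335 and 439.9 CPM (median 378), of which 65.0% was rbp3, a retinoid carrier that the retina uses as well.

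The cytosolic ribosomal protein genes held 4.98% of the CPM, and all 78 were detected. Most of the proteins are needed in equal numbers in each ribosome, and the genes' mean levels ran up to 2109 CPM for rps2 with a median of 541 CPM. The 6 highest were rps2, rplp0, rpl3, rpl4, rpsa and rpl6, whereas rps28, rps29, rpl38 and rpl39 averaged 268, 287, 215 and 365 CPM. The 2 lowest were a second gene of the symbol rpl37, between 5.85 and 8.12 CPM (median 6.86), and rps27l, between 12.0 and 26.2 CPM (median 20.0). The first gene of the symbol rpl37 was between 351 and 389.9 CPM (median 372). No lengths were used here, so the part of transcript length in this order was not tested. The sum varied by 3.55% between libraries.

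Pairs of genes whose names differ in a last a or b numbered 2712, and 2625 of them summed to 2 CPM or more. The larger member took 90% or more of the counts in 422 pairs, or 16.1%, and 80% or more in 887. It took under 60% in 655, and its median share was 71.2%. The member named a was the larger in 1424 pairs and the member named b in 1201, and both were detected in 2317. Members of unequal length receive unequal counts for the same number of molecules, so these shares do not give the ratio of molecules.

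**Figure D3:**
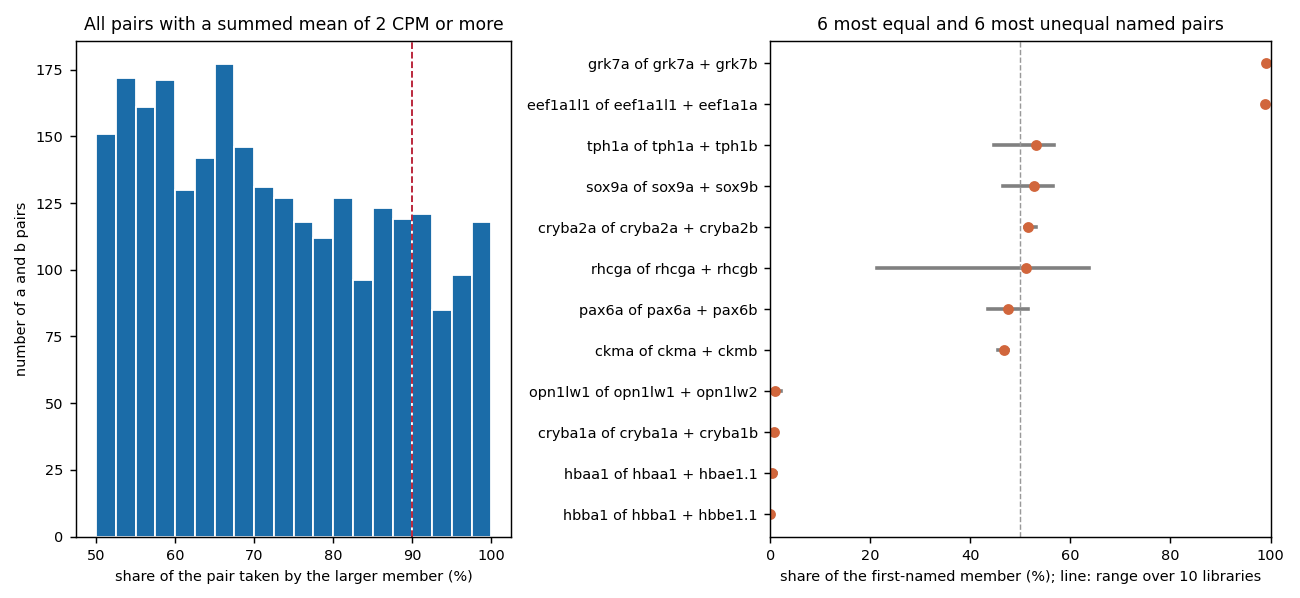
Left, the number of a and b gene pairs by the percentage of their CPM that the larger member took, with 90% dashed, for 2625 pairs over 10 CTRL libraries. Right, the percentage taken by the first-named member in the 6 most equal and 6 most unequal of 54 listed pairs (points, share of the mean; lines, range over 10 libraries), where rhcga has the longest line, from 21.4% to 63.7%.

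In the most unequal listed pairs a single gene took nearly all counts. The lens crystallin gene cryba1b took 99.3% of its pair with cryba1a, the red opsin opn1lw2 99.03% of its pair with opn1lw1, and grk7a, a kinase of cone opsins, 99.02% of its pair with grk7b. The elongation factor gene eef1a1l1 took 98.9% beside eef1a1a. The larval globin hbae1.1 took 99.7% beside the adult hbaa1. Glial fabp7a, a fatty acid binding protein, took 98.1% beside fabp7b, and gad1b, which makes the transmitter GABA, 97.8% beside gad1a.

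Other pairs were close to equal. cryba2a took 51.5% of its pair, between 50.95% and 53.1% by library. pax6b, a transcription factor of eye, brain and islets, took 52.5%, and sox9a, a factor of cartilage, 52.7%. The muscle creatine kinase ckmb took 53.3% beside ckma, and ckma stayed between 45.5% and 47.6% in every library. rhcga and rhcgb, ammonia channels, came to 51.03% for rhcga on average but between 21.4% and 63.7% by library. The CPM of rhcga was 18.2, 10.1, 9.16, 7.98 and 27.6 in CTRL OCT20 r1 to r5 and 38.4, 38.1, 39.4, 33.2 and 34.3 in CTRL JUN20 r1 to r5. All 5 CTRL OCT20 libraries lay below all 5 CTRL JUN20 libraries.

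Spread between pools was small for most genes. The common biological coefficient of variation, the spread that edgeR estimates beyond counting error, was 12.4% over the 21314 genes with enough counts and 10.9% with the campaign as a term. It was 13.8% in the 5 CTRL OCT20 libraries alone, 7.34% in the 5 CTRL JUN20 libraries alone, and 9.92% without CTRL OCT20 r1 and r5. Among the 11457 genes of 10 CPM or more, the median SD of log2(CPM + 0.5) was 0.114. The SD was under 0.2 in 83.9% of these genes, at least 0.5 in 102 (53 without CTRL OCT20 r1 and r5) and at least 1 in 5. Its median was 0.116 for genes between 10 and 100 CPM, 0.101 between 100 and 1000 CPM and 0.0991 above.

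**Figure D4:**
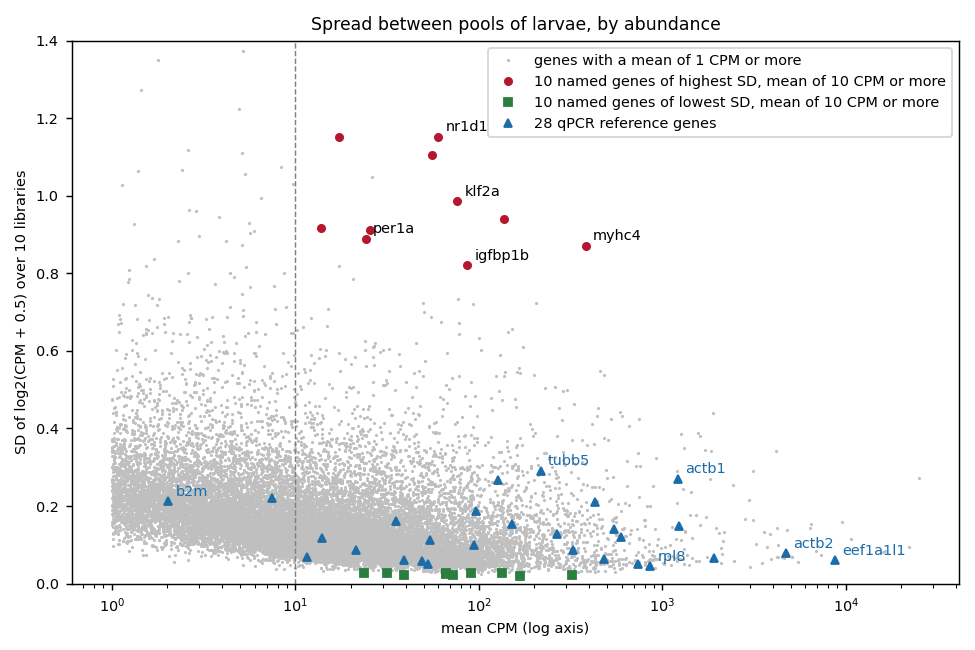
SD of log2(CPM + 0.5) over 10 CTRL libraries against mean CPM (log axis) for 20070 genes, of which 3 lie above the axis. Colours and symbols mark the 10 named genes of highest and the 10 of lowest SD at 10 CPM or more and 28 reference genes; tubb5 and actb1 lie far above rpl8.

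Of the 10 named genes that varied most, nr1d1 and per1a are clock genes and hsp70l, serpinh1b, hsp90aa1.2 and hsp70.3 heat shock genes, and the others were klf2a, rhcga, myhc4 and igfbp1b. nr1d1, a repressor in the clock, was 21.6, 24.4, 16.9, 17.9 and 32.4 CPM in CTRL OCT20 r1 to r5 and 106, 107, 126, 83.7 and 64.2 CPM in CTRL JUN20 r1 to r5 (SD 1.152 on the log2 scale). per1a, a period gene of the clock, was between 9.41 and 13.4 CPM in CTRL OCT20 and between 32.9 and 43.7 CPM in CTRL JUN20 (SD 0.89). In both genes every CTRL OCT20 library lay below every CTRL JUN20 library. The same held for 7 of the 10 most variable named genes, and for 422 of the 11457 genes of 10 CPM or more, or 3.68%, whereas every CTRL OCT20 library lay above in 396, or 3.46%. The 10 were chosen for their spread, so nothing is read from that difference. The labels do not record the hour of sampling.

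The heat shock genes encode chaperones that stress induces. hsp70l, an inducible Hsp70, was between 2.75 and 45.4 CPM (median 13.4, log2 SD 1.151), serpinh1b, the collagen chaperone, between 16.8 and 129 CPM (median 49.7, log2 SD 1.104) and hsp90aa1.2, an Hsp90, between 51.5 and 281 CPM (median 125, log2 SD 0.94). All 3 reached their highest level in CTRL JUN20 r2, and all 3 are among the 7 genes whose CTRL OCT20 libraries all lay below CTRL JUN20. The highest CTRL OCT20 and lowest CTRL JUN20 levels were 11.1 and 15.7 CPM for hsp70l. They were 39.4 and 60.1 CPM for serpinh1b, and 97.0 and 152 CPM for hsp90aa1.2. Without CTRL OCT20 r1 and r5 the SD was 1.296 for hsp70l and 0.998 for serpinh1b.

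Other genes varied within campaigns. klf2a, a transcription factor that responds to blood flow, was 45.3, 31.4, 55.4, 26.2 and 116 CPM in CTRL OCT20 r1 to r5 and 166, 137, 110.0, 44.1 and 30.1 CPM in CTRL JUN20 r1 to r5 (SD 0.99). igfbp1b, a binding protein of insulin-like growth factors, was highest in CTRL OCT20 r5 at 236 CPM and CTRL OCT20 r1 at 139.8 CPM, and 36.2 to 99.2 CPM in the other 8. Its SD was 0.82, and 0.46 without those 2 libraries.

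The lists differed in how far their members varied. Of all genes of 10 CPM or more, 10% had an SD above 0.239 and 10% an SD below 0.0617. Of the fasting, stress and early response genes 30 of 38 lay in the upper 10%, and of exocrine pancreas genes 24 of 26. The same held for 22 of 25 dividing cell genes, 11 of 15 red cell genes and 15 of 22 bone and connective tissue genes. It held for 14 of 24 cartilage genes and 16 of 34 circadian genes. Of the neuron genes 0 of 35 lay there and 10 lay in the lowest 10%, as did 48 of 77 ribosomal protein genes. With bounds recomputed without CTRL OCT20 r1 and r5, the upper 10% held 10 of the 25 dividing cell genes and 30 of the fasting and stress genes. It held 25 of the exocrine pancreas genes and 18 of the circadian genes. Of the bone and connective tissue genes it then held 2, of the red cell genes 8 and of the cartilage genes 8. Members of a list share their libraries, so these counts describe the pools and are no test. Lists and members were also chosen with earlier results of these data known, so part of these counts may follow from that choice. The sum of the fasting and stress list was 2139 CPM in CTRL OCT20 r4, 2160.3 CPM in CTRL OCT20 r2 and 4644 CPM in CTRL OCT20 r5, the extremes of the 10 libraries.

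**Figure D5:**
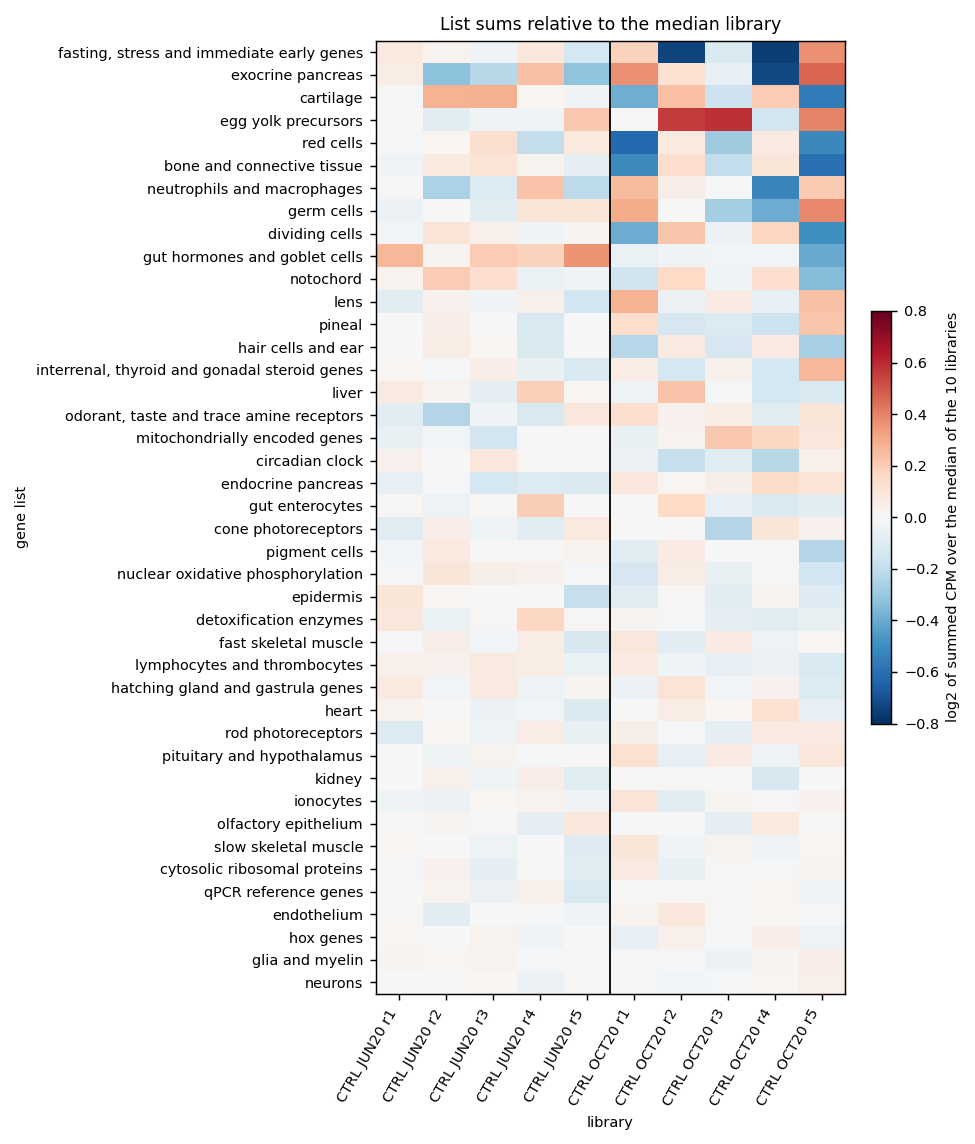
Log2 of each list's summed CPM in a library over its median in 10 CTRL libraries, for all gene lists ordered by spread. Fasting and stress genes lie at -0.75 in CTRL OCT20 r4 and 0.37 in CTRL OCT20 r5, while neurons stay between -0.04 and 0.04.

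The 10 least variable named genes had SDs of 0.02 to 0.03. ndfip2, an adaptor of ubiquitin ligases, was between 163 and 171 CPM (median 169), calm1a, which encodes the calcium sensor calmodulin, between 313 and 327 CPM (median 322), and mtor, a kinase of growth control, between 70.4 and 73.8 CPM (median 72.4). ptk2ab, a focal adhesion kinase, was between 37.9 and 40.1 CPM (median 39.1). znf219, vsnl1b, celf1, taf2, nrbp2a and luzp1 completed the set. In each of the 10 the highest library exceeded the lowest by less than 10%.

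Genes used as references in quantitative PCR covered most of the range of spread. Of 28, 26 averaged at least 10 CPM, 14 of these had an SD below the median of all genes and 3 lay in the upper 10%. rpl8 and rpl13a, ribosomal protein genes, were between 819 and 896 CPM (median 859) and between 702 and 782 CPM (median 734), and only 2.25% and 3.79% of genes had a lower SD. For eef1a1l1 that share was 8.71%, for mob4 9.45%, for actb2 22.5% and for gapdh, a glycolytic enzyme gene, 69.1%. gapdh was between 1042 and 1389 CPM (median 1222).

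The 3 reference genes in the upper 10% were tubb5, a tubulin, actb1, a cytoplasmic actin, and eif1b, a translation factor. tubb5 was between 155 and 294 CPM (median 214, log2 SD 0.29), actb1 between 859.7 and 1432 CPM (median 1295, log2 SD 0.27) and eif1b between 93.8 and 164 CPM (median 129, log2 SD 0.27). With CTRL OCT20 r1 and r5 left out the upper 10% of all genes began at an SD of 0.184. tubb5 at 0.22 and eif1b at 0.29 still lay above that bound, and actb1 at 0.15 lay below it. The number of reference genes above the bound was again 3, so another one had entered. The pair of actins moved unequally, and actb1 took between 15.0% and 23.29% of their counts. b2m and hmbsa, between 1.67 and 3.02 CPM (median 1.94) and between 5.74 and 9.60 CPM (median 7.59), were too low for the set of 26.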

How the data were processed

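The 10 CTRL libraries, each a pool of 10 larvae, were read on a NovaSeq as paired 51-base reads with molecular identifiers, per the labels' protocols. The table deposited by the authors holds raw counts per gene, not normalised, with Ensembl identifier, symbol and biotype. All 20 per-sample files held the same counts as this table. The submitters' processing notes name CASAVA, STAR 2.7.8a, SAMtools, DESeq2 3.17 and the GRCz11 build. Counting tool, annotation release and use of the molecular identifiers remain unknown (not given in the sources used here). Floors cover counting error only. The table has 32520 genes, 865 without a symbol and 1234 sharing a symbol with another gene, and near-identical copies may have divided reads.

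CPM were computed from the counts with TMM factors in edgeR 4.0.16 (R 4.3.3), and figures with matplotlib 3.10.9 (Python 3.11.15). Detected means 1 CPM or more in all 10 libraries. The biological coefficient of variation used genes kept by edgeR's filter (10 counts or more in enough libraries) and an intercept. SDs used log2(CPM + 0.5) and genes with a mean of 10 CPM or more. No test between groups was made and no p-value computed. Dixon's critical value served only to flag single libraries for a closer look. Symbols matched 1084 of 1118 entries of 37 lists, and 5 further lists were taken by name pattern. Members and lists were chosen with earlier results of these data known. Named genes were the 20 highest, the 5 highest of each list, pairs of extreme shares, all reference genes, the 10 most and least variable, the 5 highest of each non-coding biotype and markers near 0; opn1lw1, the green opsins, hox, globin and ribosomal examples and other members named beside these were added after their values were seen. Alternatives were other scalings, thresholds and subsets of libraries. In data simulated for the 10 CTRL libraries and 32520 genes, a coefficient of variation set at 12% was recovered as 11.98%, and as 13.68% where 200 genes were set at 60%. Gene lengths and sequences were not used here, and 1 gene that the naming rule gives is not reported here.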

Additional observations from a re-analysis of the deposited data

Results flagged for a closer look

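Each of 349 results (list sums, shares of counts, library totals and named genes) was searched for a library that lay far from the other 9: the gap between the highest or lowest library and the next, divided by the whole range, had to exceed Dixon's 95% critical value for 10 samples. This held for 17 results. Chance gives about 1 in 20 for independent values of normal spread. Here list sums share genes with the named genes, and some genes were named for their values. Nothing is therefore read from the number found. A gap to the next library also misses libraries that lie far out together. In 7 of the 17 the library was CTRL OCT20 r5.

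In CTRL OCT20 r5 the sum of interrenal, thyroid and gonadal steroid genes was 106 CPM, against 92.4 CPM in the next library, a gap of 0.536 of the range. In the same library pde6ha stood at 911 CPM (next 760.1, gap 0.549), glula, a glutamine synthetase of glia, at 407 CPM (next 353, gap 0.588), igfbp1b at 236 CPM (next 139.8, gap 0.481) and lhx4, a transcription factor, at 17.5 CPM (next 15.9, gap 0.523). It was the lowest library for the pigment genes pmela, at 60.1 CPM (next 82.3, gap 0.480), and tyrp1b, at 46.9 CPM (next 71.7, gap 0.495).

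In CTRL OCT20 r1 the slow myosin gene smyhc2 was high at 274 CPM (gap 0.589), and b2m at 3.02 CPM (gap 0.570). In CTRL OCT20 r3 prox1a, a transcription factor, was low at 31.0 CPM (gap 0.543), and tbp, a general transcription factor, at 11.2 CPM (gap 0.567). hbaa2 was high in CTRL OCT20 r2 at 0.241 CPM (gap 0.479), a level of few counts. asmt2 was high in CTRL JUN20 r3 at 6.68 CPM (gap 0.522), cd63 low in CTRL JUN20 r2 at 86.4 CPM (gap 0.512) and the neuropeptide gene tac1 low in CTRL JUN20 r4 at 8.53 CPM (gap 0.476). bglap and cd8a had counts in a single library each, CTRL JUN20 r3 at 0.145 CPM and CTRL JUN20 r4 at 0.0618 CPM, so that the gap was the whole range (1).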

How the results depend on the processing

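Leaving out each library in turn gave 19000 to 19047 detected genes, 527 to 536 genes holding 50% of the CPM, a protein-coding share of 95.6% to 95.8%, a mitochondrial ribosomal RNA share of 2.45% to 2.62%, a biological coefficient of variation of 11.3% to 12.8%, a median SD of 0.108 to 0.116, 418 to 425 pairs at 90%, and 24 lists at 1000 CPM or more each time. In the CTRL OCT20 libraries alone the coefficient of variation was 13.8% and the median SD 0.117, against 7.34% and 0.0755 in the CTRL JUN20 libraries alone; the cause was not tested. Without CTRL OCT20 r1 and r5, an alternative chosen after seeing the data, they were 9.92% and 0.0982. Leaving mitochondrial genes out of the total put the protein-coding share at 98.1%, since mitochondrial ribosomal RNA leaves the total, and a threshold of 80% gave 887 pairs. Detected genes numbered 20400 at 0.5 CPM, 17229 at 2 CPM and 21309 at 10 counts, and 18992 with RLE factors. List sums stayed within 1 SD in all 420 recomputations that left out a library and in 264 of 335 others. Without its largest member a list moved by more in 37 cases and stayed within 1 SD in 5. Leaving mitochondrial genes out of the total moved 23 sums and left 18, and leaving out genes on more than 1 list moved 11 and left 31. Leaving out libraries could hardly move a mean by 1 SD of the same 10, so those cases do not show stability. The count of lists at 1000 CPM was 23 without shared genes and 19 without each list's largest member. No paired analysis was possible because no result comes from a test between groups. Levels per kilobase of coding length were not run, as lengths were not used here.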

Other observations

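Among 22680 genes with at least 100 counts over the 10 libraries, 11 sets of genes had identical counts in every library. They held 23 genes, 15 protein-coding and 5 ribosomal RNA, and the largest set had 3 members. Levels of such genes cannot be assigned to a single locus. The pair AL935186.7 and AL935186.9 averaged 8.63 CPM each.

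The genes that varied most within campaigns, by the pooled SD of log2 levels, were klf2a at 0.96, socs3a, a feedback inhibitor of cytokine signalling, at 0.81, igfbp1b at 0.79 and hsp70l at 0.74. Without CTRL OCT20 r1 and r5 igfbp1b stood at 0.50, and the other 3 between 0.72 and 0.93. Over all 10 libraries klhl38b and klf9 came next, at 0.71 each. fbxo32 and trim63a, ubiquitin ligases that muscle uses in protein breakdown, stood lower in this order, at 0.66 and 0.65. Without CTRL OCT20 r1 and r5 they stood at 0.49 and 0.44. trim63a was between 82.7 and 309 CPM (median 156) and fbxo32 between 48.1 and 174 CPM (median 92.5). The SDs of CPM in CTRL JUN20 and CTRL OCT20 were 16.9 and 60.2 for fbxo32, and 21.5 and 103 for trim63a. They were 13.7 and 79.9 for igfbp1b, 7.71 and 31.0 for klhl38b, and 15.3 and 50.6 for klf9. For klf2a, socs3a and hsp70l the CTRL JUN20 SD was the larger, at 58.7, 10.3 and 12.5, against 36.2, 8.97 and 3.90.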
